A study of Mus musculus with 6 samples.

Results

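The genes described here encode 10 regulators of epithelial identity: the grainyhead-like transcription factors Grhl1, Grhl2 and Grhl3, the zinc finger repressors Ovol1 and Ovol2, the RNA-binding splicing factors Esrp1 and Esrp2, and the epithelium-restricted ETS factors Elf3, Elf5 and Ehf. They were chosen by name, as the transcript clusters (the sets of array probes that each stand for a gene) whose only gene symbol is one of these names, and all 10 were found among 19938 genes with a symbol of their own. RNA came from MLE15, a mouse lung epithelial line established from tumors that arose in transgenic mice, in which a human surfactant protein C promoter drives viral large T antigen. The 3 Nkx2-1-shRNA lines had been transduced with lentivirus carrying a mix of shRNAs against Nkx2-1, and the 3 control lines with the empty pLKO.1 vector, which the paper calls the non-silencing control. Both groups passed puromycin selection. The labels give 48 h for both groups, while the paper describes stable lines from independent transductions. One Affymetrix Mouse Gene ST array was run per line, and values are given as deposited, in log2 units, where a difference of 1 is a doubling. The comparison asks what a partial loss of Nkx2-1, the homeobox factor of lung and thyroid epithelium, does to the RNA of these regulators. The labels do not say that the lines of a group are separate cultures, and p-values measure the spread between these lines. In bulk RNA, fewer cells of a type and less RNA per cell cannot be told apart.

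Grainyhead-like factors bind and open the enhancers of epithelial genes, among them those of E-cadherin, claudins and junction proteins. Ovol1 and Ovol2 repress genes of the mesenchymal state such as Zeb1, and Grhl2 and Ovol2 stand in mutual repression with Zeb1 in several epithelia. Esrp1 and Esrp2 impose the epithelial pattern of alternative splicing on transcripts such as those of Fgfr2, Cd44 and Ctnnd1, and are themselves repressed by Zeb factors when cells undergo epithelial-mesenchymal transition. Elf3, Elf5 and Ehf belong to the epithelium-restricted branch of the ETS family. In the developing lung Elf5 is known from the distal tips, whereas Elf3 and Ehf are known from airway epithelium.

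Elf3, Ovol2, Grhl3 and Esrp1 were called higher in the Nkx2-1-shRNA lines, by 1.84-, 1.44-, 1.35- and 1.31-fold, and no member was called lower. Groups were compared with limma over all 35557 transcript clusters, and a gene was called higher or lower at a Benjamini-Hochberg adjusted p under 0.05. Thus 4 of 10 members were called higher, where 7.61% of all transcript clusters and 15.3% of the 13568 genes above background were called higher. None was called lower, where 9.24% of all transcript clusters and 13.9% of the genes above background were (16.8% of transcript clusters were called in either direction), and without adjustment, at p under 0.05, limma gave 6 members higher and 0 lower, where 12.5% of all transcript clusters were higher and 17.1% lower. The median log2 fold change of the 10 members was 0.28, against −0.0070 over all genes with a single symbol. None of the 4 changes reached the study's threshold (adjusted p under 0.0005 and a change beyond 0.6 in log2 units), which 1.26% of all transcript clusters reached.

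**Figure D1:**
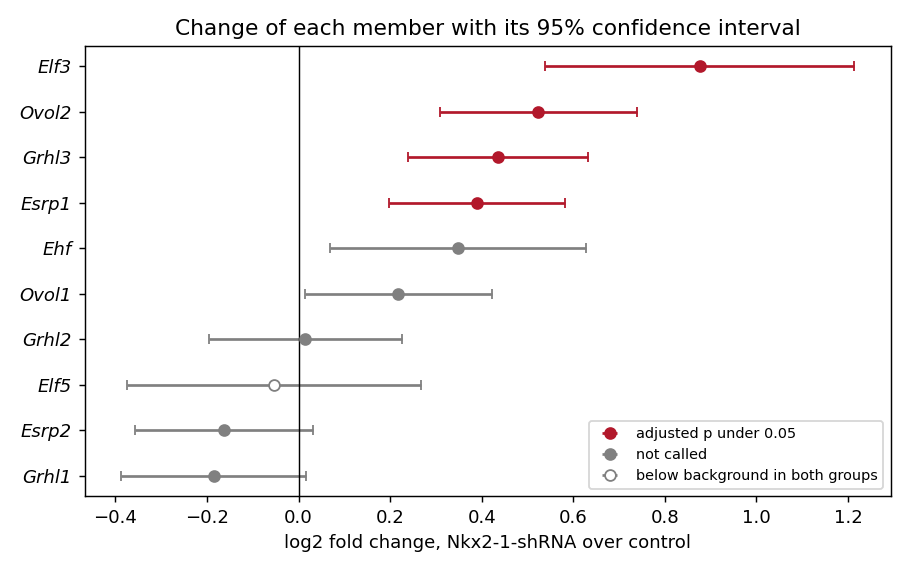
Log2 fold change of each member (horizontal axis, Nkx2-1-shRNA over control, n = 3 lines each) with its 95% confidence interval from limma, ordered by size. The 4 members in red, from Esrp1 at 0.39 to Elf3 at 0.88, were called higher at an adjusted p under 0.05; the gray members were not called, and Elf5 (open symbol) was under the background limit throughout, so that its point is not read as a change.

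As a check of the labels, Nkx2-1 itself stood at 7.91, 7.98 and 7.83 with Nkx2-1 shRNA, against 8.61, 8.61 and 8.59 in controls, or 61.8% of control (adjusted p = 0.00155). Arrays of the same group correlated at 0.991 to 0.994, and arrays of different groups at 0.979 to 0.983. A background limit of 4.35 was set at the 95th percentile of 1248 transcript clusters of olfactory, vomeronasal and taste receptor genes. Of the epithelial markers, Cdh1 (10.99 with Nkx2-1 shRNA and 11.02 in controls), Epcam (10.55 and 10.22), Krt8 (10.99 and 10.87) and Krt18 (11.52 and 11.08) were high in both groups, whereas Scgb1a1 and Cldn7 lay below the limit in both. Among the 13 markers of the label, 3 were higher and 4 lower, with Krt19 higher by 1.19 and Foxa1 lower (−0.85). Of the surfactant genes, Sftpc was lower (4.08 with Nkx2-1 shRNA, below the limit, and 7.73 in controls) and Sftpa1 too (−0.41), Sftpd was higher by 0.44, and Sftpb was not called (11.83 and 11.69). The 10 fibroblast markers were not called, of 7 endothelial markers Tek was lower (3.77 with Nkx2-1 shRNA, below the limit, and 5.77 in controls), and of 7 leukocyte markers only Csf1r was called, below the limit in both groups. Above the limit in at least 1 group were 6 of the 10 fibroblast, 3 of the 7 endothelial and 3 of the 7 leukocyte markers. Among them were Col1a1 (5.90 with Nkx2-1 shRNA and 5.81 in controls) and Cd68 (6.67 and 6.81). Dcn, Lum, Pecam1, Cdh5 and Ptprc were among those below the limit in both groups. The summed log2 values ran from 43.1 to 43.7 in the Nkx2-1-shRNA and 42.4 to 43.4 in the control lines for the fibroblast markers, from 27.1 to 27.9 and from 29.0 to 29.7 for the endothelial markers, and from 30.8 to 31.1 and from 30.2 to 31.5 for the leukocyte markers. The part of other cell types in the results was not tested.

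The promoter windows of the 3 members that rose most are given to show how often the core recognized by NKX2-1, the factor that was knocked down, is written at their starts, each running from 250 bases before to 50 bases after an annotated start in RefSeq (build GRCm38.p6). Windows were used for 5 of the 10 members (Grhl1, Grhl3, Ovol2, Elf3 and Elf5). Capitals mark CAAG or its reverse complement CTTG, the core of the NKX2-1 consensus, on either strand. The Elf3 window is chr1:135258423-135258722 (minus strand), the Ovol2 window chr2:144331313-144331612 (minus strand) and the Grhl3 window chr4:135573583-135573882 (minus strand).
Elf3: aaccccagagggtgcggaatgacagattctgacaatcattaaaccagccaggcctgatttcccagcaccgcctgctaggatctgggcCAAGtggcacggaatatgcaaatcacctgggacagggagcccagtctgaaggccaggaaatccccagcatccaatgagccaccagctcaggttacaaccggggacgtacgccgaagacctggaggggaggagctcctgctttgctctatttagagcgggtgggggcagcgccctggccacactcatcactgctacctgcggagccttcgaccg
Ovol2: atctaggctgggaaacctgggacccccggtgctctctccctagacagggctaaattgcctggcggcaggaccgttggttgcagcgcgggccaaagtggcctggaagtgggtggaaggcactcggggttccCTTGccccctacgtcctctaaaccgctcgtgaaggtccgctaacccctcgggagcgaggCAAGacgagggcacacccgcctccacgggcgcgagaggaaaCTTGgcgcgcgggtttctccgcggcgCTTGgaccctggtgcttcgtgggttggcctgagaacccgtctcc
Grhl3: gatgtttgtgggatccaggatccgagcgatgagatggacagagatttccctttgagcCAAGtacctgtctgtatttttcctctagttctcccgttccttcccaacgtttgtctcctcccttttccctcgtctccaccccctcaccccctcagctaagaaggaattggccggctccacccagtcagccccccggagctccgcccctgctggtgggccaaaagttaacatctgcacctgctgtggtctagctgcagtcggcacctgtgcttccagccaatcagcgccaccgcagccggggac

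The Ovol2 window held 4 such cores, at −120, −61, −20 and 7 from the start, and the Elf3 and Grhl3 windows 1 each, at −163 and −193. A core of 4 letters is frequent, and 90.6% of all 32851 promoter windows held at least 1. Grhl1, which was not called, held 2 in its first window and 3 in its second. Elf5, below the background limit, held 1 and 2. The letters CACCTG or CAGGTG, the E-box form that Zeb and Snail repressors bind, occurred once in the Elf3 window (−140) and at 2 positions in the Grhl3 window (−19 and 9) and not in the Ovol2 window, where 20.2% of all windows held it. The form AACNGGTT of the grainyhead site, on either strand, was in none of these 3 windows and in 2.09% of all. The ETS core GGAA or TTCC was in all 3 and in 96% of all windows. No matches of these motifs overlapped each other in the 3 windows. Of the windows not shown, those of Elf5 held the E-box form at 3 positions and at 1, and those of Grhl1 did not hold it. A match is a run of letters and not a measured binding site.

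Among the grainyhead-like genes Grhl3, which drives epidermal barrier formation and wound closure, measured 5.49, 5.40 and 5.34 (log2) with Nkx2-1 shRNA, against 4.95, 4.92 and 5.06 in controls. Every Nkx2-1-shRNA line lay above every control line, although the values were not far above the background limit. The log2 fold change was 0.44 (SE 0.083, 95% confidence interval 0.24 to 0.63, adjusted p = 0.0138). Without Nkx2-1-shRNA replicate 1 the adjusted p was 0.0611. Grhl2, the family member tied most closely to lung epithelial integrity, measured 7.03, 7.01 and 7.03 with Nkx2-1 shRNA, against 7.09, 7.08 and 6.86 in controls. These groups overlapped, and the interval of the difference ran from −0.20 to 0.23 (log2 fold change 0.015, adjusted p = 0.942). Grhl1, which controls desmosomal cadherin expression in the skin, measured 6.94, 6.72 and 6.87 with Nkx2-1 shRNA, against 7.02, 7.06 and 7.01 in controls. Its Nkx2-1-shRNA lines were all lower, but the change of −0.19 (interval −0.39 to 0.017) did not pass (adjusted p = 0.205).

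Of the Ovol genes, Ovol2, which represses Zeb1 and other mesenchymal genes, measured 6.61, 6.69 and 6.49 (log2) with Nkx2-1 shRNA, against 5.97, 6.11 and 6.13 in controls. The lowest Nkx2-1-shRNA line was above the highest control line. The log2 fold change was 0.52 (SE 0.090, interval 0.31 to 0.74, adjusted p = 0.00951), and the call held in each of the 6 fits without 1 line, but not with a test that allows unequal variances (adjusted p = 0.0524). Ovol1, a relative that acts in epidermal and germ cell differentiation, measured 5.20, 5.07 and 5.16 with Nkx2-1 shRNA, against 5.04, 4.86 and 4.88 in controls. Its groups were separated by a narrow gap, and the change of 0.22 (interval 0.014 to 0.42) did not pass after adjustment (adjusted p = 0.144).

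Of the splicing factors, Esrp1 measured 9.51, 9.46 and 9.49 (log2) with Nkx2-1 shRNA, against 9.19, 9.10 and 9.00 in controls. The Nkx2-1-shRNA lines were tightly grouped above all control lines (log2 fold change 0.39, SE 0.081, interval 0.20 to 0.58, adjusted p = 0.0191). Of the 4 calls this one was lost most often in the fits without 1 line. Without Nkx2-1-shRNA replicate 1, 2 or 3 or control replicate 2 the adjusted p was 0.0761, 0.0557, 0.0642 and 0.0554, with log2 fold changes of 0.38, 0.40, 0.39 and 0.39. Allowing unequal variances gave an adjusted p of 0.118. Esrp2, which shares its targets with Esrp1 and acts beside it, measured 7.82, 7.79 and 7.77 with Nkx2-1 shRNA, against 7.85, 7.96 and 8.05 in controls. These values were lower in all Nkx2-1-shRNA lines, but the change of −0.16 (interval −0.36 to 0.032) did not pass (adjusted p = 0.248).

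Of the ETS factors, Elf3, an epithelial factor that responds to inflammatory signals and to epithelial differentiation, measured 6.98, 6.97 and 6.85 (log2) with Nkx2-1 shRNA, against 5.76, 6.30 and 6.12 in controls. This was the largest change among the 10 members, and every Nkx2-1-shRNA line lay above every control line. The log2 fold change was 0.88 (SE 0.14, interval 0.54 to 1.21, adjusted p = 0.00743), and it ran from 0.73 to 0.99 over the fits without 1 line, all of them called. Control replicate 1 was the lowest of the control lines, and without it the change was 0.73 (adjusted p = 0.00962). The SD of Elf3 was 0.071 with Nkx2-1 shRNA and 0.27 in controls, and with a test that allows unequal variances the adjusted p was 0.151. Ehf, a factor of airway and glandular epithelium, measured 6.13, 5.73 and 5.81 with Nkx2-1 shRNA, against 5.60, 5.51 and 5.52 in controls. The Nkx2-1-shRNA lines were all higher, but the change of 0.35 (interval 0.069 to 0.63) missed the threshold (adjusted p = 0.0952). It passed in 3 of 18 alternatives, with adjusted p from 0.0383 to 0.304 over them all. Elf5, a factor of alveolar progenitors and of the mammary gland, measured 3.91, 4.33 and 4.12 with Nkx2-1 shRNA, against 4.17, 4.33 and 4.01 in controls. All 6 values lay below the background limit, so that a difference between its groups is not read as a change.

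**Figure D2:**
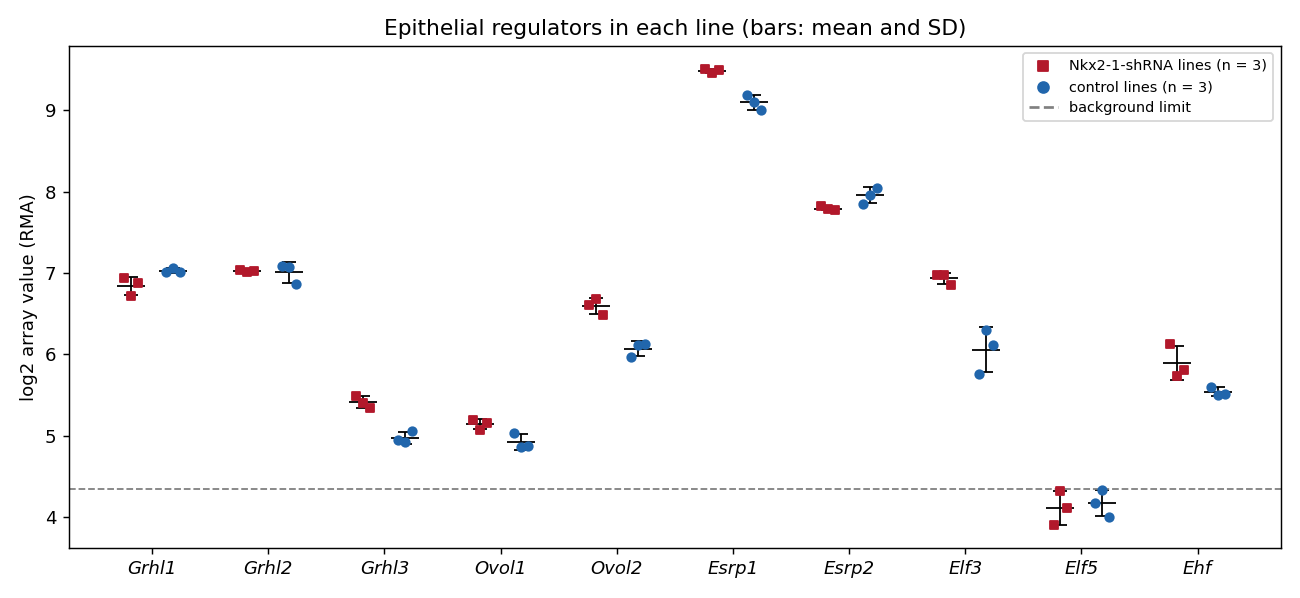
Log2 values (vertical axis) of the 10 members in the 3 Nkx2-1-shRNA lines (red squares) and the 3 control lines (blue circles), with group means, SDs and the background limit of 4.35 (dashed). Elf3, Ovol2, Grhl3 and Esrp1, which were called, show separated groups with the Nkx2-1-shRNA lines above, as do Ovol1 and Ehf, which were not called. For Grhl1 and Esrp2, not called either, the Nkx2-1-shRNA lines lie below. Levels of different genes come from different probes and are not comparable with each other.

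In all, the groups did not overlap for 8 of the 10 members, 6 of them higher and 2 lower (Grhl1 and Esrp2) in the Nkx2-1-shRNA lines, where 34.9% of all transcript clusters did not overlap. For each of these 8 an exact two-sided permutation test gave p = 0.1, the smallest that 3 lines against 3 allow.

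Relatives within a family were then set against each other. The change of each gene relative to a family member was read as the difference of their log2 values within each array. The value of Esrp1 minus Esrp2 was 1.69 ± 0.025 with Nkx2-1 shRNA and 1.14 ± 0.19 in controls (SD, n = 3 each), a shift of 0.55. For Grhl1 minus Grhl3 the shift was −0.62 (1.43 ± 0.10 with Nkx2-1 shRNA and 2.05 ± 0.095 in controls) and for Grhl2 minus Grhl3 −0.42. For Esrp1 over Esrp2 every Nkx2-1-shRNA line lay above every control line, and for Grhl1 and Grhl2 over Grhl3 every one lay below. For Esrp1 over Esrp2 and for Grhl1 over Grhl3 this had to follow from the single genes. The groups of both genes were already separated there, in opposite directions, so these separations are no further result. For Elf3 minus Ehf it was 0.53, for Ovol1 minus Ovol2 −0.31 and for Grhl1 minus Grhl2 −0.20. Of the 8 pairs compared, 2 hold Elf5 and are not read, since its values are below background. In the other 6 the groups were separated, each with p = 0.1 by the exact two-sided permutation test (adjusted p = 0.114 over the 8 pairs), so that no pair could pass at this number of lines. The pairs share genes, and the share of separated groups among other gene pairs was not computed.

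The members were then set among their neighbors on the chromosome. For each member the 10 nearest genes above background on each side were taken, by the gene order of RefSeq. The stretches so covered were unequal, from 0.35 megabases around Ovol1 to 10.3 around Ehf. The median log2 fold change of the 20 neighbors ran from −0.19 (around Ehf) to 0.14 (around Grhl3). Of all genes above background 15.3% were called higher and 13.9% lower, shares that stand beside the counts of called neighbors. Around Elf3 it was −0.033, with 4 neighbors called higher and 4 lower. Its neighbors Lgr6, a stem cell receptor gene, and Lad1, which encodes a basement membrane protein, were higher by 1.64 and 1.23, whereas the adjoining Rnpep was lower by 0.45 (log2 fold change −0.45). Around Ovol2 the median was −0.037 and around Esrp1 −0.046, with 3 called higher and 3 lower in each case. Single neighbors rose by more than the member. Flrt3 near Ovol2 was higher by 0.71, and Pdp1 and Rab2a near Esrp1 by 0.80 and 0.62. Around Grhl3 5 of 20 neighbors were called higher and 1 lower. Among them Id3 (1.07) and the adjoining Ifnlr1 (0.49) rose by more than Grhl3 (0.44). Ehf and Elf5 are neighbors, and of the 20 genes around Ehf 2 were called higher and 5 lower. Apip on one side of the pair (−0.82) and Cat, the catalase gene, on the other (−1.14) were lower, while Abtb2, the next gene above background after Cat, was higher by 1.07. Ehf itself was higher in all Nkx2-1-shRNA lines.

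**Figure D3:**
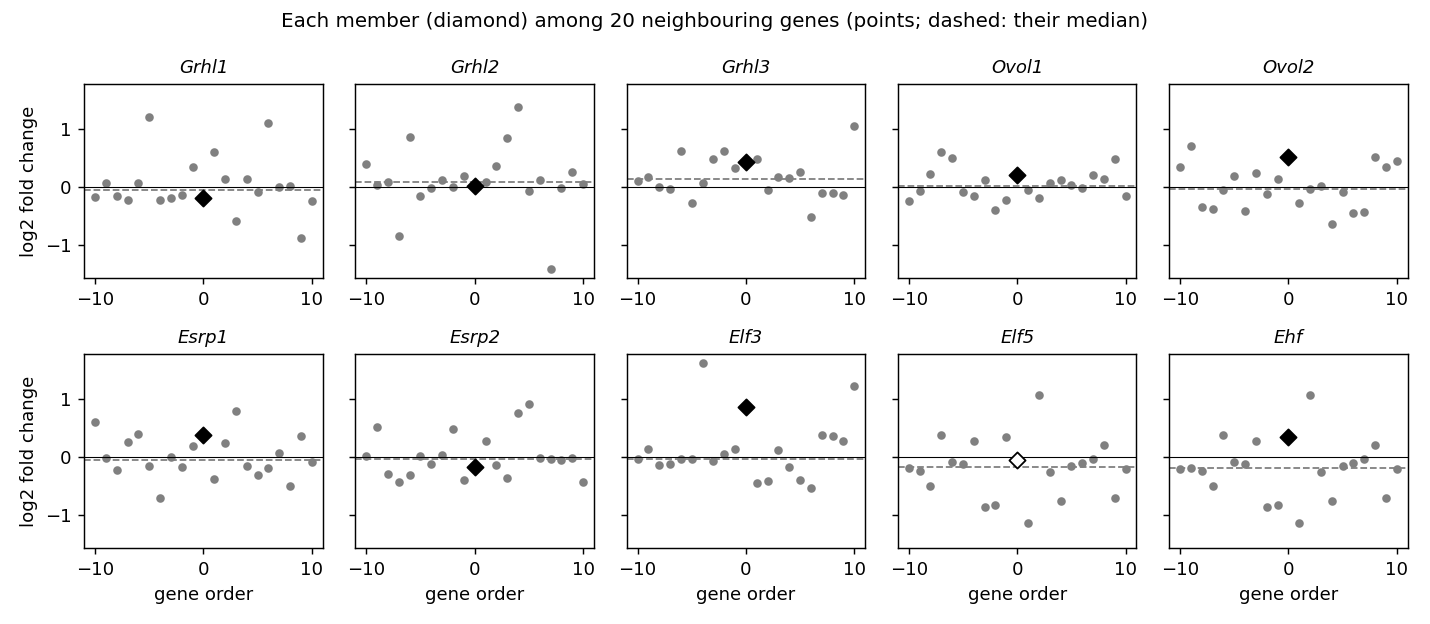
Log2 fold change (vertical axis, Nkx2-1-shRNA over control, n = 3 lines each) of each member (diamond) and of the 10 nearest genes above background on either side (gray points), in gene order along the chromosome, with their median (dashed). The neighborhood medians lie between −0.19 and 0.14, and around Elf3, Ovol2, Grhl3 and Esrp1 single neighbors rose by more than the member. The open diamond is Elf5, below background in both groups.

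Genes tied to the members by their known roles were listed and counted in the same fit. Beside the counts of these lists stand the 15.3% of genes above background called higher and the 13.9% called lower. Some lists also hold genes below the background limit. Of all 19938 genes with a single symbol, below the limit or not, 2124 were called higher and 1969 lower. Of 19 measured epithelial genes linked to grainyhead-like factors, 2 were higher, 1 lower and 16 not called, with a median log2 fold change of 0.16. The tight junction gene Cldn4 was at 8.65 ± 0.24 with Nkx2-1 shRNA and 6.91 ± 0.18 in controls (SD, n = 3 each; log2 fold change 1.74, adjusted p = 6.1e-04) and the desmosome gene Dsp was higher by 1.24, while Tmem54 was lower (−0.56, adjusted p = 0.0184). The count of lower genes was 0 without Nkx2-1-shRNA replicate 1 or 3 or control replicate 1 or 2, and 2 without Nkx2-1-shRNA replicate 2. Cdh1, which encodes E-cadherin, differed by −0.032 (interval −0.21 to 0.14). Of 13 genes of the cornified barrier, the skin-like envelope that Grhl3 and Elf3 help to build, 2 were higher, 1 lower and 10 not called (median 0.14). Sprr1a, which encodes an envelope precursor, was at 10.12 ± 0.17 with Nkx2-1 shRNA and 8.24 ± 0.30 in controls (log2 fold change 1.88, adjusted p = 6.8e-04). Tgm1, the gene of the cross-linking enzyme transglutaminase and a known Grhl3 target, was higher by 1.11 (adjusted p = 4.1e-04). The envelope gene Ivl, in contrast, was lower (−1.13, adjusted p = 0.00148).

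Of 6 repressors of the epithelial state, against which Ovol2, Grhl2 and the Esrp genes are usually set, 2 were higher and 4 not called (median 0.17). Zeb2 was at 5.80 ± 0.11 with Nkx2-1 shRNA and 5.23 ± 0.17 in controls (log2 fold change 0.58, adjusted p = 0.0154) and Snai1 was higher by 0.28 (adjusted p = 0.0404). Zeb1 (4.00 with Nkx2-1 shRNA and 3.95 in controls) and Snai2 (3.85 and 3.39) were below the background limit, and Twist1 (4.49 and 4.52) and Twist2 (4.48 and 4.55) were just above it. The count of 2 did not hold without 1 line. It was 1 without Nkx2-1-shRNA replicate 1 or control replicate 1 or 3, and 0 without Nkx2-1-shRNA replicate 2 or 3 or control replicate 2.

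Of 10 transcripts known to be spliced by Esrp factors, 2 were higher, 1 lower and 7 not called in total amount (median −0.029). Slk, a kinase gene, was higher by 0.65 (adjusted p = 0.00432) and the actin regulator gene Enah by 0.35 (adjusted p = 0.0441), while Ctnnd1, the gene of p120-catenin, was lower (−0.53, adjusted p = 0.0321). Fgfr2, the classical Esrp target, was at 4.81 with Nkx2-1 shRNA and 5.17 in controls (adjusted p = 0.0805). The values are summaries over a whole transcript cluster, and the choice between epithelial and mesenchymal exons was not measured. Without any 1 of the Nkx2-1-shRNA lines or control replicate 1 or 2, only 1 target was higher and 0 lower, and without control replicate 3, 2 were lower. Of 15 other splicing regulators 4 were lower and 11 not called, with Ptbp2 (−0.58), Celf1 (−0.53), Hnrnpm (−0.47) and the epithelial factor Rbm47 (−0.38; median of the list −0.098). The count was 2 without Nkx2-1-shRNA replicate 1 or 2. In the same arrays Esrp1 was higher, and Esrp2 was not called (−0.16).

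Outside the members, further relatives of the families moved in both directions. Tfcp2l1, a factor of the CP2 branch of the grainyhead superfamily, was at 6.13 ± 0.048 with Nkx2-1 shRNA and 7.37 ± 0.055 in controls (log2 fold change −1.24, adjusted p = 1.7e-04), and it was the only one called of 4 such relatives; Tfcp2 was not (−0.099). Of 22 other ETS factors 4 were higher, 2 lower and 16 not called (median 0.11). The count of higher factors was 3 to 4 without 1 line. Of all genes above background 15.3% were higher and 13.9% lower. Of all 19938 genes with a single symbol 2124 were higher and 1969 lower, and 4 of the 22 factors were below background. Ets2, a nuclear target of Ras and MAP kinase signaling, was higher by 1.64 (adjusted p = 2.4e-04), more than any of the 3 epithelial ETS members. Elk3 was higher by 0.88 and Elf4 by 0.68. Etv1, of the Etv1, Etv4 and Etv5 group that follows FGF signaling in lung buds, was lower (−1.03, adjusted p = 0.00236), and Etv4 was lower too (−0.43, adjusted p = 0.0107), though without Nkx2-1-shRNA replicate 1 only 1 of the 22 was lower. Ets1, named first in that list, was higher by 0.47 (adjusted p = 0.00860).

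**Figure D4:**
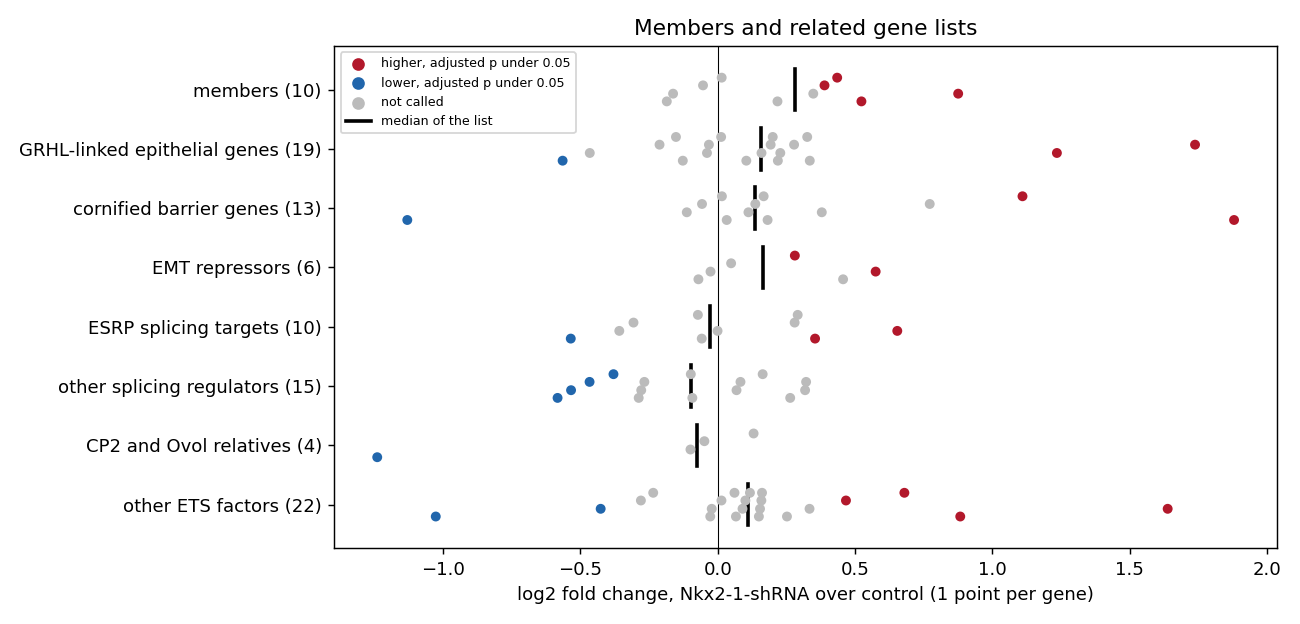
Log2 fold changes (horizontal axis, Nkx2-1-shRNA over control, n = 3 lines each) of the members and of 7 related gene lists, with 1 point per gene, red for higher and blue for lower at an adjusted p under 0.05, and a black bar at each median. The number of measured genes stands in parentheses; the member median is 0.28, and each of the other lists has called genes, from Tfcp2l1 at −1.24 to Sprr1a at 1.88.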

How the data were processed

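The log2 values of 6 arrays were deposited by the authors after RMA in Expression Console 1.1 (per the submitters' processing notes). RMA corrects background, equalizes the distributions of probe values across arrays and summarizes probes per transcript cluster. The medians of the deposited values still differed, at 5.10 to 5.14 in the Nkx2-1-shRNA and 5.18 to 5.21 in the control arrays. The genome build of the array annotation is not given in the sources used here. The values were used as they stand; an array has no read depth, and precision rests on 3 lines per group. Of 35557 transcript clusters 21789 carried a single gene symbol in the array's annotation. Where a gene had several, the brightest on average was taken; none of the members had more than 1. The comparison used lmFit and eBayes of limma 3.58.1 under R 4.3.3, unblocked, with 2.86 prior degrees of freedom beside 4 residual ones, with Benjamini-Hochberg adjustment over all transcript clusters. The fit was tested on simulated data with known changes. Genes of the members, Nkx2-1, all epithelial repressors, the first gene of each list and up to 4 of its called genes with the largest change were named; neighbors, further markers and Etv4 were named after their values had been seen. The members and lists were chosen with earlier results of these data known. Promoter sequences came from RefSeq (GRCm38.p6), and 19 genes had no position there. Alternatives were other tests and priors, array weights, repeated quantile normalization, median centring, filters on dim transcript clusters, a replicate block and fits without each line. The microRNA arrays and other assays of the study were not analysed here.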

Additional observations from a re-analysis of the deposited data

How the results depend on the processing

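The number of members called higher (4) was 5 with repeated quantile normalization, among transcript clusters above the median level or with 1 gene symbol, where Ehf also passed. It was 3 by the methods' t-test, where Elf3 missed the threshold (adjusted p = 0.0506), 1 (Grhl3) with a test for unequal variances, 0 at the study's threshold by limma and by the methods' t-test, and 2 to 4 without 1 line, the lowest without Nkx2-1-shRNA replicate 1. No member was called lower in any alternative run; before adjustment the methods' t-test passed 6 higher members and 1 lower one, where 11.7% of all transcript clusters were higher and 15% lower. Nkx2-1 kept its direction throughout (log2 fold change −0.73 to −0.61), with an adjusted p of 0.0550 for unequal variances (log2 fold change −0.69). Grhl2, near 0, was −0.0053 with array weights and −0.059 to 0.055 without 1 line. The difference of Elf5, not read as a change because its values are below the limit, took either sign (0.027 with median centring, −0.16 to 0.052 without 1 line). After median centring 59.5% of called transcript clusters were higher, where the main share was 45.2%. With the background limit at the 90th percentile (3.97) 0 members lay below it, in place of 1 (Elf5). The lists' counts moved more. Genes linked to grainyhead-like factors called lower (1) ran from 0 (both t-tests) to 2 (array weights, filters) and from 0 to 2 without 1 line, and cornified barrier genes called higher (2) reached 4 with either renormalization and with filters. Epithelial repressors called higher (2) were 1 by the methods' t-test, 0 for unequal variances, and 0 to 1 without 1 line. Esrp targets called higher (2) ran from 0 (unequal variances) to 4 (filters) and were 1 by the methods' t-test and with repeated quantile normalization, and 1 to 2 without 1 line; those called lower (1) ran from 0 (both t-tests, median centring) through 2 (trended prior) to 3 (array weights) and from 0 to 2 without 1 line. Other splicing regulators called lower (4) were 2 for unequal variances, 7 with filters and 2 to 4 without 1 line, and those called higher (0) were 1 with the trended prior, median centring and filters. Other ETS factors called higher (4) were 1 for unequal variances, 3 by the methods' t-test, 5 with either renormalization, and 3 to 4 without 1 line. Those called lower (2) were 1 for unequal variances and 1 to 2 without 1 line. The cause of these differences was not tested.

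The replicate numbers pair the lines by name only: deviations of same-numbered lines correlated at 0.058, 0.14 and −0.034, and 3 of 6 lines correlated best with their own number. With replicate number as a block 4 members were called higher, while 0 epithelial repressors were called in place of 2, and 1 Esrp target was higher in place of 2.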
